A study of Mus musculus with 2 samples.

Results

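Blood stem and progenitor cells in the fetal liver depend on a small set of secreted factors and the receptors that bind them, and 8 such genes were examined here: the ligands Kitl, Thpo, Cxcl12, Csf1 and Flt3l and the receptors Kit, Cxcr4 and Flt3. They were taken with every probe set that the platform annotation assigns to that gene alone. Of these 8, 6 were represented by 15 single-gene probe sets, among 18193 genes and 34945 such probe sets on the array. Thpo, the cytokine that sustains stem cells and drives platelet formation, had 0 probe sets in the annotation used. Flt3l, the ligand of Flt3, shared its probe set with the ribosomal protein gene Rpl13a and gave no value of its own.

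Most of these factors act locally, between neighbouring cells. Kitl (stem cell factor) binds the receptor tyrosine kinase Kit, which maintains stem cells, erythroid progenitors and mast cells. Cxcl12 is a chemokine that draws and holds stem cells through Cxcr4, while Ackr3 binds the same chemokine and clears it. Csf1 acts through Csf1r on macrophages, and Flt3l acts through Flt3 on early lymphoid and dendritic progenitors. In fetal liver, hepatoblasts, perivascular and stellate mesenchyme and endothelium are the known sources of such factors, and blood cells carry most of the receptors.

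Whole liver RNA from mouse embryos at E14.5 was read on 2 Affymetrix arrays: 1 for wild type and 1 for Prox1 f/f;Foxa3Cre, with NMRI/C57Bl6 as the strain label of both. In the conditional knockout, called the mutant below, Cre recombinase under Foxa3, a gene of gut and liver endoderm, acts on a floxed gene for the homeodomain factor Prox1. Blood cells, endothelium and mesenchyme of the liver are mainly of mesodermal origin. The labels do not say whether the wild-type embryos carried Cre or a floxed allele, or how many livers went into each sample. With 1 array per genotype no spread among samples could be measured and no test between genotypes was possible, so each difference is that of these 2 samples alone.

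Signals are linear MAS5 intensities, and log2 differences are mutant minus wild type ("knockout minus wild type" in the plots). Values below 112.6, the higher of the medians of the arrays, were raised to that floor before taking log2. A gene at the floor on 1 array gives only a bound, and a gene at the floor on both gives no fold. A gene was represented by its brightest probe set and called measured where it exceeded the floor on at least 1 array. The labels were checked first. Prox1 read 340.3 in wild type and 221.8 in the mutant, and its other probe sets were also lower; where they lie relative to the floxed part was not analysed here. The hepatoblast proteins Alb (32396 and 33186) and Afp (36369 and 35212) were near the top of the scale on both arrays. Xist read 11467 and 365.7 and the Y-linked Eif2s3y 0.87 and 1972, so the samples also differed in sex-linked genes, whose part in the values below was not tested.

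None of the measured niche genes differed by 2-fold. Of the 6 genes with a probe set, 5 were measured, and 0 were higher and 0 lower by 2-fold or more. Over all 11397 measured genes, 5.4% were 2-fold apart (3.27% higher and 2.13% lower). At so low a share a count of 0 among 5 genes does not set the niche genes apart. The log2 differences ran from 0.03 for Kit to 0.83 for Cxcr4, with a median of 0.17, against a median of 0.03 over all measured genes. All 5 values lay above 0, as did 53.8% of measured genes. However, Kitl, Cxcl12 and Csf1 each had probe sets on both sides of 0, and Kit ran from -0.01 to 0.28 over the settings tried. Over those settings Kitl, Cxcl12 and Cxcr4 kept their sign. Cxcr4 has a single probe set, so the choice of probe set could not change its sign. Among the 15 probe sets, 12 were above the floor on at least 1 array. With the floor, 0 of those had a difference or bound of 2-fold, where 4.45% of all such probe sets did. However, 2 of the 12 are bounds, whose full size is not known. For Kitl probe set 1426152_a_at the bound was -0.72, and its readings without the floor gave -1.05. Of the 12, 8 lay above 0 and 4 below 0.

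**Figure D1:**
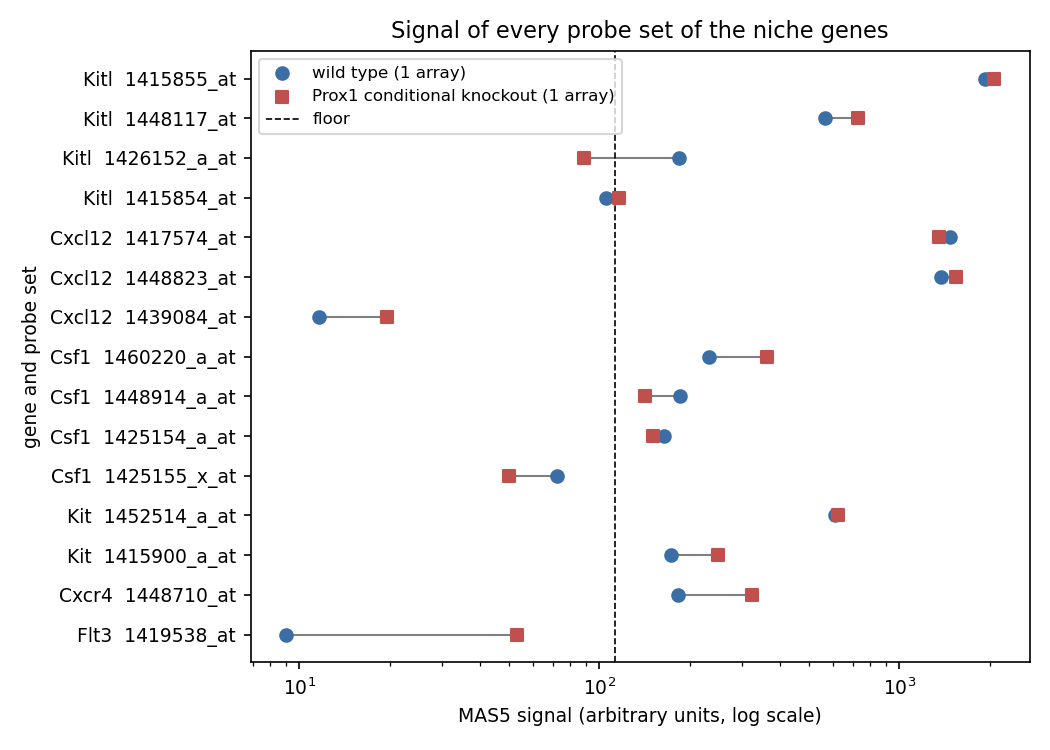
MAS5 signal (log axis, arbitrary units) of each of the 15 probe sets of the niche genes, with a blue circle for the wild-type array, a red square for the mutant array and a dashed line at the floor of 112.6. The brightest Kitl and Cxcl12 probe sets nearly coincide on the arrays, Cxcr4 is apart, and the Csf1 probe sets above the floor differ in direction.

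Among the ligands, Kitl hardly differed on its brightest probe set. That probe set, 1415855_at, read 1929 in wild type and 2073 in the mutant, 1.07-fold higher, a log2 difference of 0.10. The next, 1448117_at, read 567.4 and 726.7, a log2 difference of 0.36. Both lay above 0, and under the other settings tried the gene's value stayed between 0.07 and 0.13. The first difference was well inside 0.23, the robust SD of the log2 difference among genes between signals of 1000 and 5000. The dim Kitl probe sets were less clear. Probe set 1426152_a_at went the other way, from 184.9 in wild type to 89.2 in the mutant, below the floor there and so at least 1.64-fold lower. Probe set 1415854_at lay at the floor, at 104.9 and 116.3. An "a_at" probe set is one designed to match alternative transcripts of a gene; which Kitl transcripts each probe set matches was not analysed here.

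Cxcl12 was bright on both arrays and its probe sets differed in direction by a small amount. Probe set 1448823_at read 1380 in wild type and 1550 in the mutant, a log2 difference of 0.17. Probe set 1417574_at read 1471 and 1353, a log2 difference of -0.12. The gene therefore shows no direction that its probe sets share; the values are 0.29 apart on the log2 scale, and their median was 0.02. A disagreement of this kind is common on these arrays: over 2702 genes with 2 probe sets above the floor on both arrays, 35.6% had differences of opposite sign, and the median gap between the probe sets was 0.23. The remaining Cxcl12 probe set, 1439084_at (11.6 and 19.7), did not reach the floor on either array.

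Csf1, the growth factor of macrophages, also had probe sets that disagreed. Its brightest probe set, 1460220_a_at, read 232.4 in wild type and 363.1 in the mutant, 1.56-fold higher, a log2 difference of 0.64. The other Csf1 probe sets above the floor were lower in the mutant. Probe set 1448914_a_at read 185.1 and 141.5, a log2 difference of -0.39, and 1425154_a_at read 164.8 and 150.7, a log2 difference of -0.13. The range over these 3 probe sets was 1.03, where 5.53% of 1158 genes with 3 probe sets above the floor on both arrays had a range of at least 1. As the median of its probe sets, Csf1 was -0.13 rather than 0.64, so these data give no direction for it. The last Csf1 probe set, 1425155_x_at (72.1 and 49.9), did not reach the floor on either array.

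Among the receptors, Cxcr4 had the largest difference of the 5 measured niche genes. Its single probe set, 1448710_at, read 182.2 in wild type and 323.8 in the mutant, 1.78-fold higher, a log2 difference of 0.83. Both readings were above the floor, and the difference stayed between 0.74 and 0.83 under the other scalings and floors tried. With the floor at the 60th percentile the wild-type reading fell below it, so the 0.77 found there is a bound. Of the 10221 genes above the floor on both arrays, 4.28% had a log2 difference at least as high, and the robust SD was 0.46 among genes below a mean signal of 250, where Cxcr4 lies. Cxcr4 was thus toward the upper edge of the spread and within the middle 95% of these genes, which ran from -0.84 to 1.01. There is no second probe set to check it against.

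Kit was nearly equal on its brighter probe set. Probe set 1452514_a_at read 612.2 in wild type and 624.0 in the mutant, a log2 difference of 0.03 that became -0.01 when the arrays were scaled to the same 75th percentile. The dimmer 1415900_a_at read 173.2 and 249.1, 1.44-fold higher, a log2 difference of 0.52. The gap between them was 0.50. Flt3, the receptor of early lymphoid progenitors, was not measured: its probe set 1419538_at read 9.03 and 53.2, below the floor on both arrays, so no fold is given. At 1.5-fold in place of 2-fold, 2 of the 5 measured genes passed, Cxcr4 and Csf1, both higher, where 9.87% of measured genes were 1.5-fold higher and 15.1% were 1.5-fold apart.

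**Figure D2:**
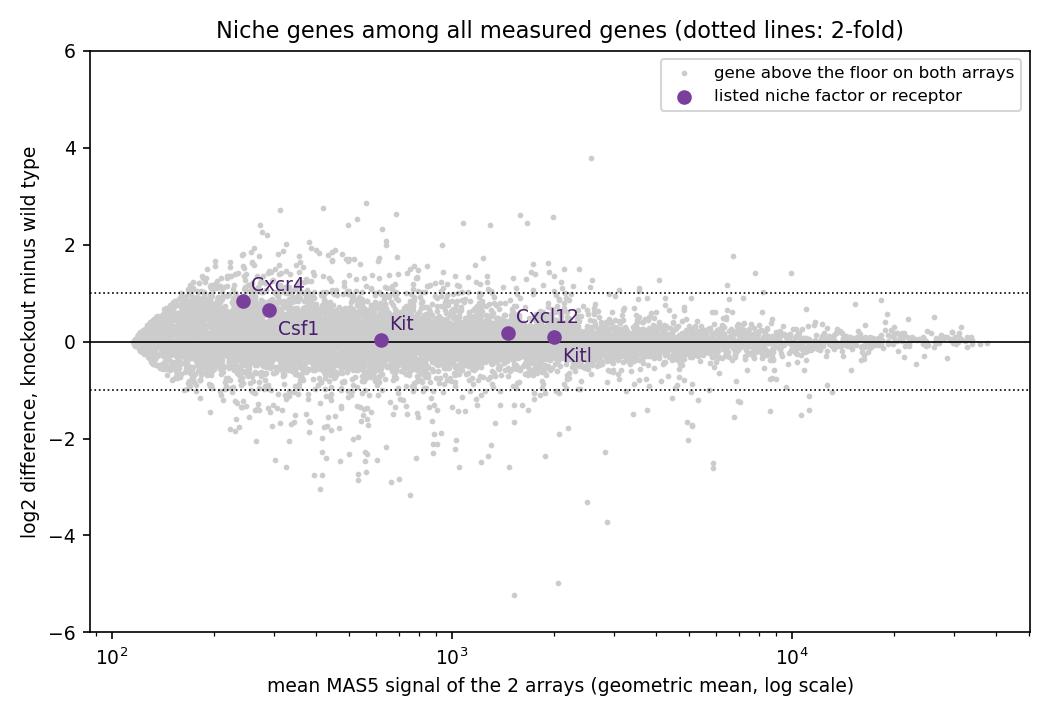
Log2 difference (mutant minus wild type) against the geometric mean MAS5 signal of the arrays (log axis), with a grey point for each of the 10221 genes above the floor on both arrays and purple points for the 5 measured niche genes. Cxcr4 (0.83) and Csf1 (0.64) sit among dim genes, where differences spread widely, and Kit, Cxcl12 and Kitl sit near 0; dotted lines mark 2-fold.

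The receptors that pair with these ligands were read beside them. Ackr3, the scavenging receptor for Cxcl12, read 234.1 in wild type and 529.9 in the mutant, 2.26-fold higher, on its single probe set. Without that probe set Ackr3 would have no value. Its difference stayed past 2-fold under each rescaling (1.12 to 1.15 on the log2 scale). Ackr3 and Cxcr4 thus both read higher in the mutant while the Cxcl12 probe sets differed in direction. Csf1r, the receptor for Csf1, read 3110 and 3535 on its brightest probe set, a log2 difference of 0.18, and its other probe sets were higher by 0.42 and 0.58 on the log2 scale. All Csf1r probe sets therefore lay in the same direction, unlike those of Csf1.

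The wider list held 33 other ligands and receptors of blood formation, of which 28 were on the array with a single-gene probe set and 17 were measured. By 2-fold or more, 1 of the 17 was higher and 0 were lower, where 3.27% of all measured genes were higher and 2.13% lower. Of the 17, 16 lay above 0, as did 53.8% of all measured genes. Their median was 0.37 against 0.03 over all measured genes. Only 13 of the 17 were above the floor in wild type, against 17 in the mutant. The rest are bounds that lie above 0 by construction, and they enter this count and median. Tek, the angiopoietin receptor, counted among the 16 at 0.04, turned to -0.04 when the arrays were quantile normalized and to -0.03 after lowess correction. After Ackr3 came the granulocyte colony-stimulating factor receptor Csf3r, at 129.4 in wild type and 245.8 in the mutant, 1.90-fold higher. Il6ra, the interleukin 6 receptor, was below the floor in wild type at 108.0 and read 175.2 in the mutant, so at least 1.56-fold higher on this probe set, with a bound of 0.01 on the log2 scale on its other. The growth factor Ptn read 578.9 and 874.0, a log2 difference of 0.59, with its other probe sets at 0.54 and 1.75. The erythropoietin receptor Epor, at 3650 and 3339, was the gene of the list below 0 (-0.13).

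Most ligands of that list could not be measured. A total of 11 of the 28 genes were below the floor on both arrays, among them the cytokines Il3, Il6, Il7, Il11, Csf2, Csf3, Lif and Il34. The ligands of Kit and Cxcr4 were thus read well above the floor, while many other haematopoietic cytokines were not.

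**Figure D3:**
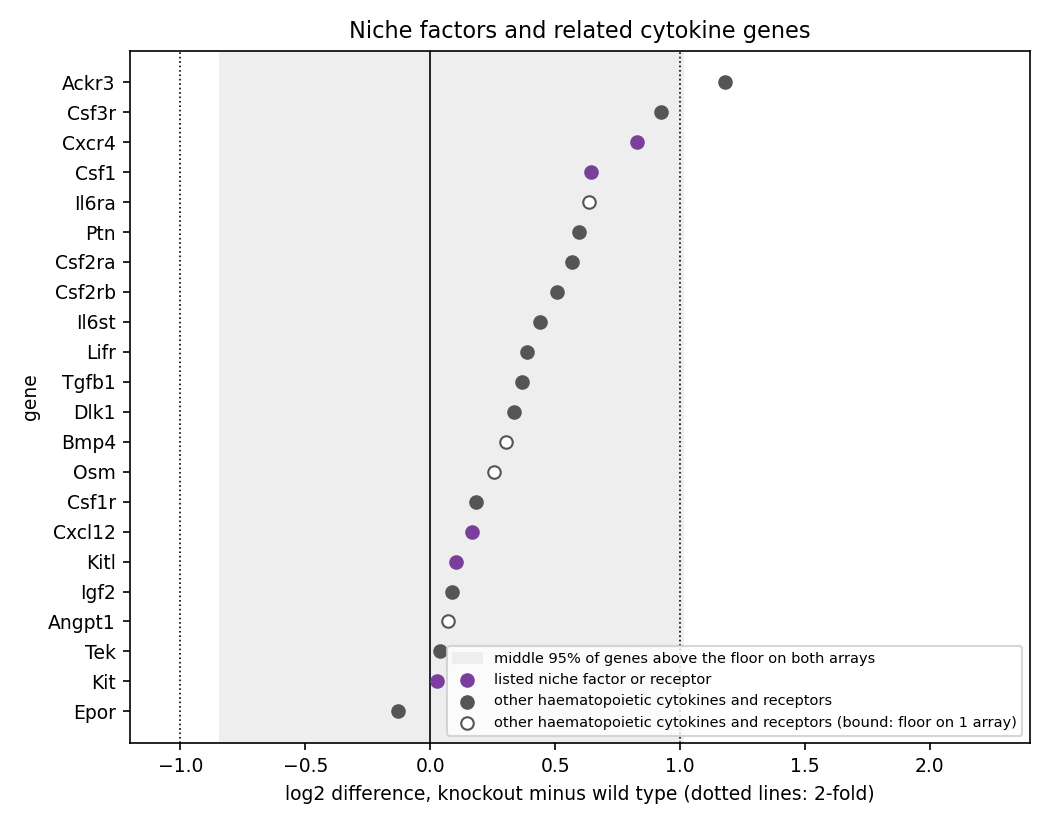
Log2 difference (mutant minus wild type) of the 5 measured niche genes (purple) and the 17 measured genes of the list of related cytokines and receptors (grey), each by its brightest probe set, with open circles for bounds where the gene was below the floor on 1 array. Ackr3 (1.18) is past the dotted 2-fold line, and the shaded band is the middle 95% of all genes above the floor on both arrays, from -0.84 to 1.01.

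Signal relays below these receptors were mostly near 0. Of 36 listed kinases, adaptors, G proteins and feedback genes, 32 were measured; by 2-fold or more 1 was higher and 0 were lower, and the median was 0.19 (0.09 to 0.21 over the settings tried). The higher gene was Ptk2b, a kinase activated downstream of chemokine receptors, which did not reach the floor in wild type (103.3) and read 261.0 in the mutant, at least 2.32-fold higher, a bound that came to 0.45 on the log2 scale with a floor at the 60th percentile; as the median of its probe sets Ptk2b was at 0.88. Ptpn6, a phosphatase that restrains Kit signalling, read 663.9 and 1240, 1.87-fold higher. Dpp4, a peptidase that inactivates Cxcl12, read 440.0 and 705.9 on its brightest probe set, 1.60-fold higher, but its other probe sets above the floor were at -0.21 and -0.01 on the log2 scale.

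Genes of the cells that carry Kit, Cxcr4 and Flt3 were read next. Of 26 stem and progenitor cell genes, 24 were measured, and 0 had a difference or bound of 2-fold (1 had when a 30th percentile floor was used). Of the 24, 18 lay above 0 and 6 below, down to -0.43, and the median was 0.20. Over all measured genes, 53.8% lay above 0. In wild type 20 of the 24 were above the floor, and the bounds of the rest lie above 0 by construction. The pan-leukocyte phosphatase Ptprc (CD45) read 588.9 and 1110, 1.88-fold higher in the mutant, and Cd34, a surface protein of progenitors and endothelium, read 191.1 and 354.1, 1.85-fold higher. These 2 differences were the largest of the list and close in size to that of Cxcr4, while Kit on its brighter probe set was nearly equal. The array reads RNA of whole liver, in which fewer cells of a type and less RNA per cell cannot be told apart.

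The niche also holds blood cells by adhesion. Of 19 listed adhesion genes 16 were measured. On their brightest probe sets 2 were higher by 2-fold or more and 0 were lower, where 3.27% of all measured genes were higher and 2.13% lower. Of the 16, 13 lay above 0 and 3 below, where 53.8% of all measured genes lay above 0. The median was 0.38, against 0.03 over all measured genes. The higher genes were the integrin chain Itga6 (508.9 and 1155, 2.27-fold) and the selectin ligand Selplg (225.9 and 456.4, 2.02-fold, but 0.95 to 0.98 on the log2 scale in each rescaling). Vcam1, a stromal and macrophage ligand for integrins on blood cells, was the lowest of the list on brightest probe sets at 2896 and 1574, 1.84-fold lower, with its other probe sets at -0.67 and -0.24 on the log2 scale. Itga4, a chain of the integrin that binds Vcam1, read 3102 and 2912 on its brightest probe set, a log2 difference of -0.09, but its other probe sets above the floor were at -0.96, -1.49 and -2.93; as the median of its probe sets it was -1.23 and past 2-fold lower. Itga4 was named after its values were seen.

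Cell type markers differed between the arrays beside these values. For comparison, 3.27% of all measured genes were 2-fold or more higher and 2.13% lower, with a median of 0.03. All 18 stellate and mesenchymal markers were measured and 11 were 2-fold or more higher, with a median of 1.22 and a summed signal of 19755 in wild type and 41648 in the mutant. Kitl and Cxcl12, which such cells are known to make, differed by 0.10 and 0.17 on their brightest probe sets. The 15 endothelial markers, from another known source of Kitl and Cxcl12, had a median of 0.37 with 0 past 2-fold, and summed to 7419 and 8923. The 10 measured hepatoblast and hepatocyte markers had a median of -0.36, with 2 lower by 2-fold or more. Of the blood lineages, all 12 granulocyte markers were measured and 7 were 2-fold or more higher, with a median of 1.09 and sums of 36767 and 76929. The 14 measured macrophage markers of 15, which bear on Csf1 and Csf1r, had a median of 0.37 and sums of 16461 and 21809. Myeloid cells carry Cxcr4, Ptprc and Selplg, and the part of granulocytes and macrophages in the higher readings of these genes was not tested.

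The remaining lineages bear on Kit, Thpo and Flt3. The 7 measured erythroid markers had a median of -0.0058 (0.0098 after lowess correction), with 3 above 0 and 4 below. They summed to 82226 in wild type and 77962 in the mutant. Tfrc, the gene farthest from 0 among them, read 18272 and 12255, so the lower sum in the mutant rests on that gene. Only 3 of 8 mast cell markers were measured, with differences or bounds from 0.20 to 0.74 on the log2 scale, and the sum was 579 and 740. The 8 megakaryocyte markers measured, of the lineage that Thpo drives, all lay above 0 with a median of 0.45, where 53.8% of all measured genes lay above 0. Only 6 of the 8 were above the floor in wild type, and the bounds of the rest lie above 0 by construction. Of 11 lymphoid markers, of the lineage that Flt3 marks early, 4 were measured. The 5 mesothelial markers measured had a median of 0.44, but only 3 of them were above the floor in wild type, and that median is itself a bound.

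**Figure D4:**
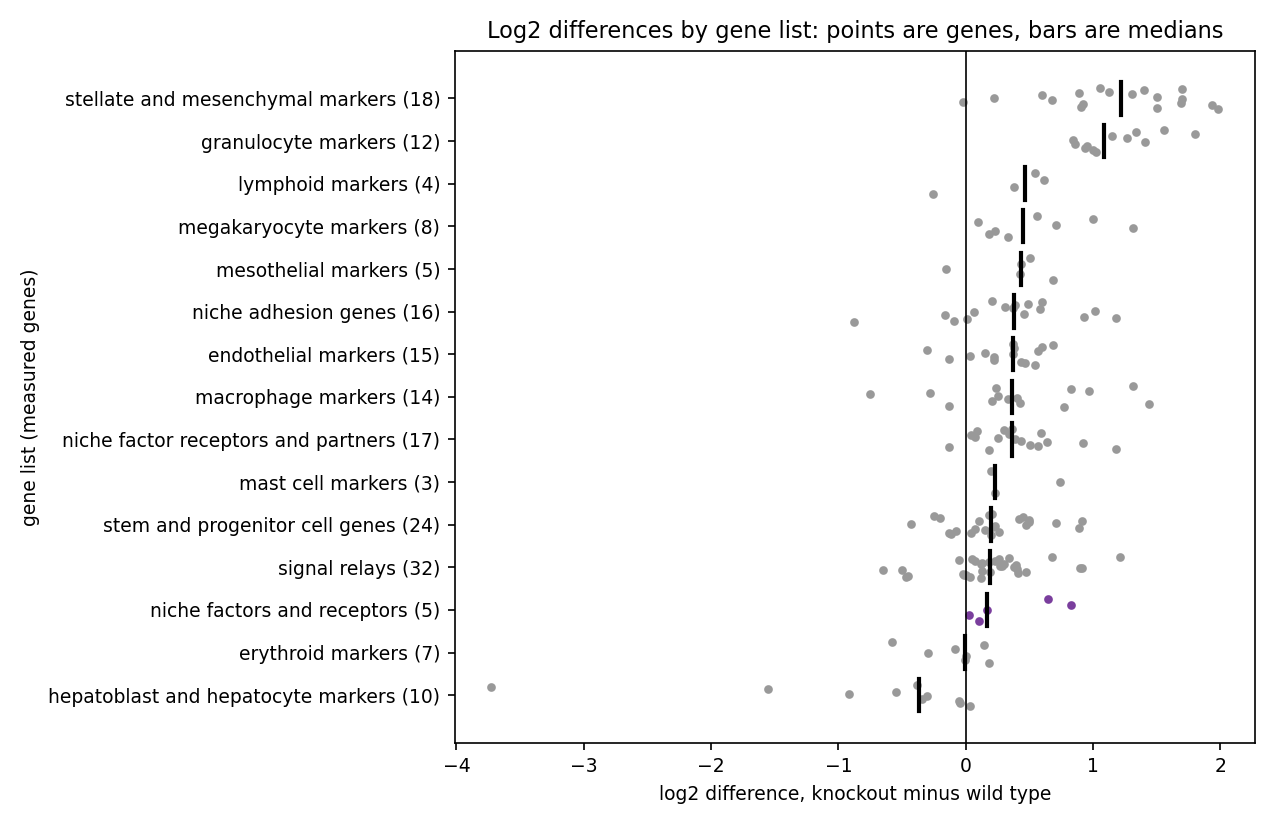
Log2 difference (mutant minus wild type) of the measured genes of each list, with a point per gene, a black bar at the list's median and the number of measured genes in brackets; bounds are drawn at their value. The niche factors and receptors (purple, median 0.17) lie between 0.03 and 0.83. The highest and lowest medians drawn are those of the stellate and mesenchymal markers (1.22) and the hepatoblast and hepatocyte markers (-0.36). The median of each other list lies between them.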

How the data were processed

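Liver RNA from 1 wild-type and 1 Prox1 f/f;Foxa3Cre sample was measured on single-colour arrays of 45101 probe sets, of which 64 controls were left out. Each deposited intensity is a MAS5 signal according to the submitters' processing notes (version not given in the sources used here). MAS5 combines perfect-match and mismatch probes and scales each array. The 2% trimmed mean was 500.0 on both arrays, so values were used as deposited. Detection calls were not used here.

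The platform annotation named 1 gene for 34958 probe sets, several for 932 and none for 9160; for 34754 of the probe sets with 1 gene the identifier was in a RefSeq table (GRCm38.p6), and 0 symbols changed. A floor at the higher 50th percentile, 112.6, preceded log2. A gene was read on the probe set whose mean log2 signal was highest. The number of arrays limits the precision: no test was possible, and a fixed size of 2-fold was used for counting. Dim genes leaned higher in the mutant, with a median log2 difference of 0.12 below a signal of 250 and -0.03 between 1000 and 5000.

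The niche genes and the 4 pathway and 10 marker lists were chosen with earlier results of these data known. Named were all niche genes, Prox1, Alb, Afp, Csf1r, Ackr3 and, from the pathway lists, some of the up to 4 measured genes farthest from 0. Xist, Eif2s3y, Tek, Epor, Tfrc and unmeasured cytokines were named after their values were seen. Alternatives were other floors, scalings, probe set choices and sizes. Counting was tested on simulated data. The versions were matplotlib 3.10.9, statsmodels 0.14.6, scipy 1.17.1, pandas 2.3.3 and numpy 2.4.6 under Python 3.11.15.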

Additional observations from a re-analysis of the deposited data

How the results depend on the processing

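The counts of niche genes at least 2-fold higher or lower stayed at 0 under each of the 8 alternative floors, scalings and probe set choices. At 3-fold they were 0 as well, which follows from the counts at 2-fold. At 1.5-fold 2 were higher and 0 lower. The median ranged from 0.08 with the median over probe sets to 0.22 with the floor at the 30th percentile, where Flt3 entered with a bound of 0.27. Over 40 values of single genes, 2 changed sign: Csf1 to -0.13 as the median over its probe sets and Kit to -0.01 under 75th percentile scaling. Many of the 40 could not change. Leaving out probe sets with the name endings "_s_at" and "_x_at", or keeping shared ones, left each of the 5 genes at the same value. The other floors did too, apart from Cxcr4 with the floor at the 60th percentile, where it became a bound of 0.77. The probe set shared by Flt3l and Rpl13a read 171.8 in wild type and 94.5 in the mutant, at least 1.53-fold lower, and cannot be assigned to either gene. Over all genes, the counts at 2-fold were 789 higher and 414 lower with the floor at the 30th percentile, against 373 and 243. No paired analysis was possible because each genotype has 1 array, and the same limit leaves no replicate to leave out.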
